A study of Ovis aries with 18 samples.

Results

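Transcripts of 8 sterol synthesis genes, HMGCS1, IDI1, FDPS, FDFT1, SQLE, DHCR7, INSIG1 and SREBF2, were followed across 12 pools of sheep embryos. The genes were taken from a list by name, and 7 of the 8 had counts in the gene table, which holds 20092 genes. IDI1 was found under its gene identifier, LOC101108851, and SQLE was not analysed here. All 7 passed the filter on low counts (15 counts or more in over 3 pools), as did 16488 genes in all.

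The study asked whether the diet of prepubertal rams reaches gene expression in the embryos that they sire. Polypay rams received a control diet, or the control diet with 1.5 g (0.22%) of rumen-protected methionine, a methyl donor, as a top-dress. Feeding lasted 77 days and began when the rams were 88 days old on average. Superovulated Polypay ewes were mated to these rams and flushed 8 days after the rams were introduced, and RNA of pools of 5 embryos was amplified over the whole transcriptome before sequencing. The control diet was represented by 6 pools, 2 each from Ram410, Ram423 and Ram444, and the methionine diet by 6 pools, 4 from Ram424 and 1 each from Ram498 and Ram511. Diet was assigned to the sire alone, and the ewes of both groups were superovulated. Pools were formed by sire and dam, the labels name only the sire, and effects of the sire and of the dam cannot be told apart. The paper reports fewer ewes than pools, so some pools of a ram shared a dam.

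Cells build cholesterol from acetyl-CoA through the mevalonate pathway, whose intermediates also supply ubiquinone, dolichol and the lipid anchors of prenylated proteins. The enzymes are under common control of SREBP-2, a membrane-bound transcription factor that is escorted from the endoplasmic reticulum and cleaved when membrane cholesterol is low, and INSIG proteins hold it back when sterols are plentiful. Cholesterol is needed for the new membranes of a growing blastocyst and for the maturation of Hedgehog proteins.

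The pools held between 1017847 and 2398589 counts (control 1173289 to 1554651, methionine 1017847 to 2398589). A control pool, Embryo444_2, and a methionine pool, Embryo511_1, stood apart: their Spearman correlations with the rest and with each other were 0.526 to 0.626, against 0.806 to 0.955 among the other 10. Levels are given in CPM, counts per 1e6 counts of the tested genes, scaled between pools by the trimmed mean of M-values (TMM). The 6 trophectoderm markers are genes of the outer layer of the blastocyst that forms the placenta. They summed to 216 CPM in Embryo444_2 and 183 CPM in Embryo511_1, against 5227 to 14257 CPM in the other 10 pools. KRT8 weighed most in the sums of the other 10 pools (3893 to 11862 CPM). CDX2, GATA2, TFAP2C, KRT8 and KRT18 were each below the range of the other 10 pools in both. ELF5 was within it, at 29.0 CPM in Embryo444_2 and 66.4 CPM in Embryo511_1 against 17.1 to 128 CPM. The 2 epiblast markers summed to 24.1 and 47.6 CPM against 143 to 535 CPM. POU5F1 carried that gap (14.2 and 39.7 CPM against 132 to 521 CPM). NANOG lay within the range of the other 10 pools (9.91 and 7.93 CPM against 5.10 to 16.3 CPM). The 4 hypoblast markers summed to 233 and 276 CPM against 417 to 952 CPM, a gap that GATA6 carried (39.0 and 66.4 CPM against 249 to 801 CPM). SOX17 was at 0 counts in Embryo511_1, while PDGFRA was highest of all 12 pools in Embryo444_2 (166 CPM) and GATA4 in Embryo511_1 (94.2 CPM). The 3 oocyte markers summed to 77.2 and 661 CPM against 53.9 to 105 CPM, and the leukocyte gene PTPRC had 121 and 254 CPM against 40.2 to 76.5 CPM. In these bulk RNA pools, fewer cells of a type and less RNA per cell cannot be told apart. The diet, sire and correlation results below are therefore given for 12 pools and for the 10 without these 2, a choice made after the data were seen, and the part of the markers in the results was not tested.

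Between embryos of control and methionine sires, none of the 7 genes passed the test. The fitted log2 fold changes, methionine relative to control, ran from -0.48 for FDFT1 to 0.56 for IDI1, with 3 genes on the higher and 4 on the lower side and a median of -0.08, beside 0.005 over all genes tested. In edgeR's quasi-likelihood test, 0 of 7 had a false discovery rate (FDR) under 0.05 and 0 of 7 an unadjusted p under 0.05. Over all genes these shares were 0% and 7.92%. In the 10 pools the test again called 0 of 7 at either threshold (0.00607% and 11.9% of all genes), with 2 genes higher, 5 lower and a median of -0.33, beside -0.03 over all genes. Likelihood-ratio testing and DESeq2 on the 12 pools also called 0 of 7. For no member did the 6 pools of one diet lie wholly above the 6 of the other, whereas 0.352% of all genes were separated in this way. Among the 10 pools the figures were 0 of 7 and 1.76%.

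**Figure D1:**
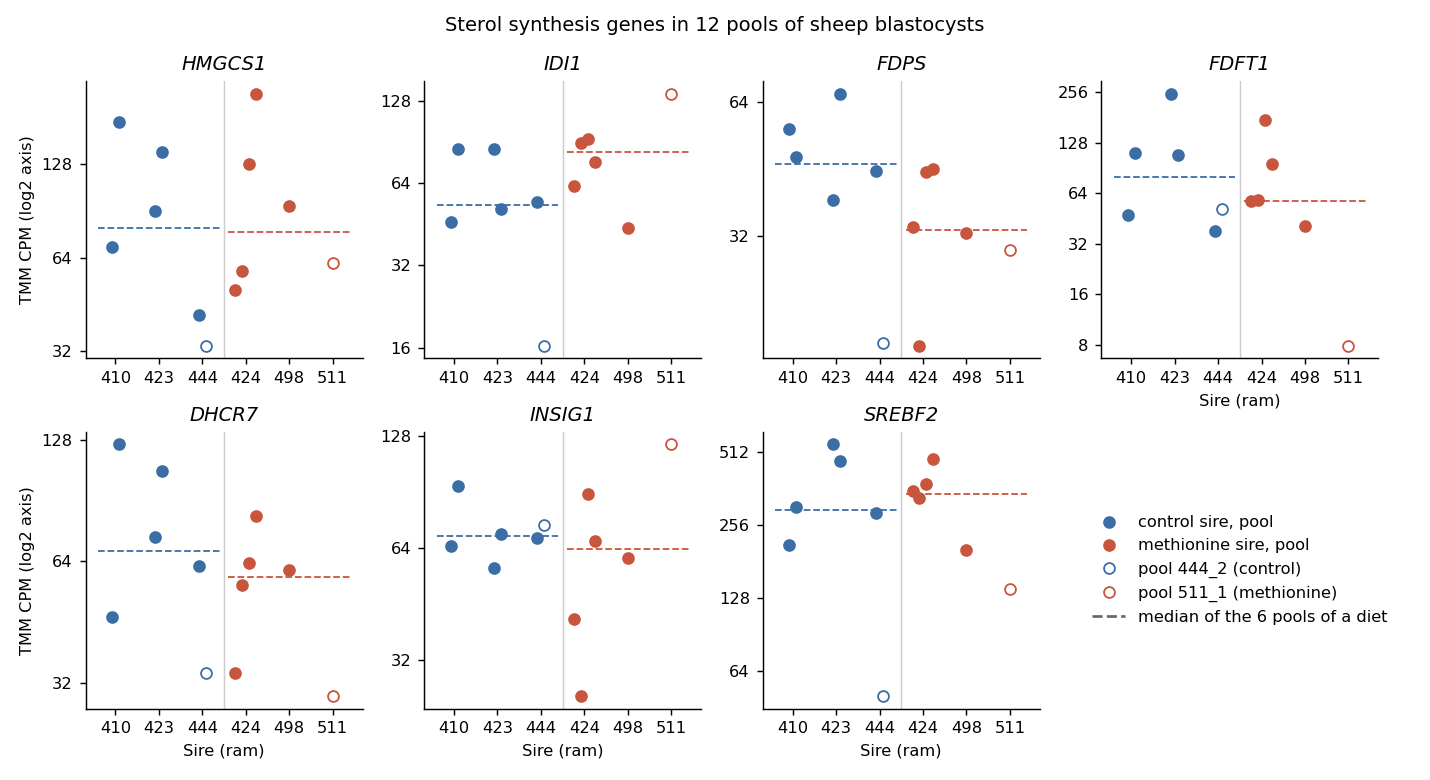
Level of each of the 7 genes in every pool, as TMM-scaled CPM on a log2 axis, with pools ordered by ram within each sire diet. Open circles mark Embryo444_2 and Embryo511_1, dashed lines the group medians. The pools of both diets overlap for every gene, and SREBF2 in Embryo444_2 (50.3 CPM) and FDFT1 in Embryo511_1 (7.93 CPM) lie lowest in their panels.

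HMGCS1 encodes the cytosolic synthase that makes HMG-CoA, the substrate from which mevalonate is formed. Its level in TMM-scaled CPM was 33.3 at the lowest, 80.0 at the median and 175 at the highest in control pools, and 50.2, 77.7 and 217 in methionine pools. The groups overlapped over nearly their whole range. The highest pools were Embryo424_4 (217 CPM), Embryo410_2 (175 CPM) and Embryo423_2 (141 CPM), the lowest were both pools of Ram444 (41.9 and 33.3 CPM), and Embryo424_1 and Embryo424_2, from the same ram as Embryo424_4, had 50.2 and 57.7 CPM. The log2 fold change of 0.15 (SE 0.43, 95% interval -0.77 to 1.06) did not pass edgeR's quasi-likelihood test (FDR 0.949), and the exact two-sided permutation test over the 6 and 6 pools gave p = 0.714. The fitted change in 10 pools was 0.08 (SE 0.40, 95% interval -0.78 to 0.93).

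IDI1 encodes the isomerase that interconverts isopentenyl and dimethylallyl diphosphate, the building units of all isoprenoids. Control pools had 16.3, 53.0 and 85.0 TMM-scaled CPM (lowest, median, highest), and methionine pools 44.0, 83.1 and 136. Both extremes came from the pools that stood apart, 16.3 CPM in Embryo444_2 and 136 CPM in Embryo511_1, and the other 10 pools lay between 44.0 and 92.5 CPM in both diets. The log2 fold change was 0.56 (SE 0.35, 95% interval -0.17 to 1.30, FDR 0.703 in edgeR's quasi-likelihood test) and the exact permutation p was 0.141. In the 10 pools it was 0.17 (SE 0.26, 95% interval -0.37 to 0.71).

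FDPS encodes farnesyl diphosphate synthase, which supplies the branch point between sterols and the non-sterol isoprenoids. Its level was 18.4, 46.4 and 66.7 TMM-scaled CPM in control pools and 18.1, 33.0 and 45.2 in methionine pools. The lowest values, 18.1 CPM in Embryo424_2 and 18.4 CPM in Embryo444_2, came from opposite diets, and 4 of 6 control pools were above 44 CPM compared with 2 of 6 methionine pools. The log2 fold change was -0.42 (SE 0.31, 95% interval -1.07 to 0.23, FDR 0.742 in edgeR's quasi-likelihood test) in 12 pools, with an exact permutation p of 0.273. Without the 2 pools that stood apart it was -0.55 (SE 0.27, 95% interval -1.12 to 0.02, unadjusted p = 0.0559, FDR 0.432). The exact permutation test over those 10 pools gave p = 0.0476 for FDPS, 1 of 7 such tests. Over the 5 rams that then remained the exact permutation p was 0.2 for FDPS, and also for DHCR7 and INSIG1. This is the smallest p that 2 against 3 rams allow.

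FDFT1 encodes squalene synthase, the first enzyme committed to sterols. It varied most among the 7 genes, from 7.93 to 251 TMM-scaled CPM, a 31.7-fold range with a coefficient of variation of 78.3%. Control pools had 38.3, 80.1 and 251 CPM and methionine pools 7.93, 57.8 and 174 CPM, so that the groups shared the range from 38.3 to 174 CPM. The value in Embryo511_1 rests on 8 counts, and without the 2 pools apart the range was 6.56-fold. Methionine pools differed from control pools by a log2 fold change of -0.48 (SE 0.55, 95% interval -1.64 to 0.68, FDR 0.837 in edgeR's quasi-likelihood test), with an exact permutation p of 0.424. In the 10 pools it was -0.39 (SE 0.46, 95% interval -1.37 to 0.58).

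DHCR7 encodes the reductase that turns 7-dehydrocholesterol into cholesterol, the last step of one arm of the pathway and the enzyme lost in Smith-Lemli-Opitz syndrome. Control pools had 34.0, 68.0 and 125 TMM-scaled CPM and methionine pools 29.7, 58.4 and 83.1 CPM. The 2 highest pools, Embryo410_2 (125 CPM) and Embryo423_2 (107 CPM), were control pools, and the lowest were Embryo511_1 (29.7 CPM), Embryo424_1 (33.9 CPM) and Embryo444_2 (34.0 CPM), with the rest of both groups intermingled. The log2 fold change of -0.45 (SE 0.33, 95% interval -1.15 to 0.25) had an FDR of 0.742 in edgeR's quasi-likelihood test, and the exact permutation p was 0.303. It was -0.49 (SE 0.29, unadjusted p = 0.110, FDR 0.522) in the 10 pools.

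INSIG1 encodes the anchor that keeps the SREBP-SCAP complex in the endoplasmic reticulum and is itself an SREBP target. It varied least of the 7 among control pools, 56.4, 69.0 and 94.2 TMM-scaled CPM with a coefficient of variation of 17.8%, and more among methionine pools, 25.5, 63.5 and 122 CPM with 51.2%. The methionine pools enclosed the control pools, with Embryo424_2 (25.5 CPM) and Embryo424_1 (41.1 CPM) below them and Embryo511_1 (122 CPM) above them. The difference in spread was not tested. Between diets the log2 fold change was -0.08 (SE 0.31, 95% interval -0.74 to 0.58, FDR 0.964 in edgeR's quasi-likelihood test), and the exact permutation p was 0.543. Without Embryo444_2 and Embryo511_1 it was -0.33 (SE 0.29, 95% interval -0.94 to 0.28), and the methionine pools, at 25.5 to 89.6 CPM, then no longer reached above the control pools, at 56.4 to 94.2 CPM.

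SREBF2 encodes SREBP-2, the factor named above, which is regulated mainly by cleavage of the protein and also acts on its own gene. Its level was 50.3, 296 and 554 TMM-scaled CPM in control pools and 140, 343 and 482 CPM in methionine pools. Both pools of Ram423 were high (554 and 472 CPM), and Embryo444_2 (50.3 CPM) and Embryo511_1 (140 CPM) were the lowest of their groups. The log2 fold change was 0.01 (SE 0.46, 95% interval -0.97 to 0.99, FDR 0.999 in edgeR's quasi-likelihood test), with an exact permutation p of 0.747. The interval narrowed to -0.68 to 0.53 in the 10 pools, around a log2 fold change of -0.07.

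**Figure D2:**
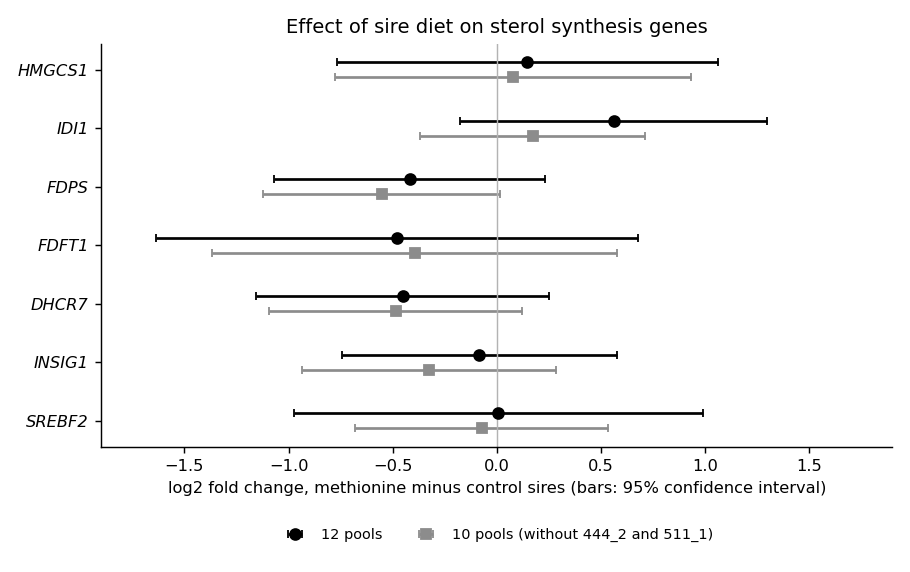
Log2 fold change of each gene between embryos of methionine and control sires, from edgeR's quasi-likelihood fit, with bars for the 95% confidence interval. Black circles are 12 pools and grey squares the 10 without Embryo444_2 and Embryo511_1. Every interval includes 0, and IDI1 moves from 0.56 to 0.17 between the fits.

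In the 12 pools the intervals reached beyond a log2 change of 1 in 1 direction for HMGCS1, IDI1, FDPS, FDFT1 and DHCR7, and ended within 1 in both directions for INSIG1 and SREBF2. These tests take all pools as independent, although several came from the same ram and some of those shared a dam. With the mean of each ram as 1 value, the exact permutation p over 3 and 3 rams was 0.3 to 1.0 for the 7 genes, where 0.1 is the smallest that this design allows.

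Sires fed the same diet were compared as well, and 0 of 7 genes passed the FDR. FDFT1 had a mean of 180 CPM in the pools of Ram423, 79.3 in those of Ram410 and 45.0 in those of Ram444. Among methionine sires it had a mean of 96.6 CPM for Ram424, and single values of 40.9 for Ram498 and 7.93 for Ram511. The only pool of Ram511 is Embryo511_1, which stood apart and had 8 counts of FDFT1, so sire and pool are the same sample there. In a quasi-likelihood test of sire within diet, chosen after the pool values were seen, FDFT1 came closest to the threshold (F = 7.17, unadjusted p = 0.00255, FDR 0.0552). For SREBF2 the unadjusted p was 0.0763 and the FDR 0.257. At an FDR under 0.05 the test called 0 of 7 members, beside 3.97% of all genes, and at an unadjusted p under 0.05 it called 1 of 7, beside 23.7%. In the 10 pools edgeR's quasi-likelihood test of sire called 0 of 7 (0.188% of all genes) and 2 of 7 (10.3%), the latter SREBF2 (unadjusted p = 0.00763, FDR 0.327) and FDFT1 (unadjusted p = 0.0240, FDR 0.426). The spread in this test comes from rams with more than 1 pool, which are Ram410, Ram423, Ram424 and Ram444 in 12 pools and the first 3 of these in 10. Pools of such a ram may share a dam.

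The 4 pools of Ram424 were compared after their values were seen. Embryo424_3 and Embryo424_4 were both above Embryo424_1 and Embryo424_2 for 6 of the 7 genes, all but IDI1, and the reverse held for 0 of 7. Over all 16488 genes the first order held for 3823 (23.2%) and the reverse for 4554. HMGCS1, for example, had 128 and 217 CPM in the first pair and 50.2 and 57.7 CPM in the second, and INSIG1 had 89.6 and 66.9 CPM against 41.1 and 25.5 CPM. Lineage markers were divided over this order. KRT8 had 10849 and 11862 CPM against 4789 and 5088, and KRT18 had 2219 and 1775 CPM against 1393 and 1149. NANOG (14.1 and 10.8 CPM against 8.60 and 5.10) and SOX17 (3.53 and 2.46 CPM against 0.956 and 1.13) followed it at low levels. GATA6, at 387 and 393 CPM against 801 and 736, and TFAP2C, at 447 and 484 CPM against 830 and 719, had the opposite order. So did PDGFRA, at 105 and 96.3 CPM against 124 and 116. CDX2, GATA2, ELF5, POU5F1 and GATA4 had neither order, and the part of these markers was not tested. Embryo424_1 and Embryo424_2 were the most alike of all pools (Spearman correlation 0.955), although their counts differed by more than sampling noise (chi-square per degree of freedom 3.31, where 1 is expected from sampling alone), and they were kept as 2 samples.

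The 7 genes were then compared with each other across pools. Of the 21 pairs of genes, 18 had a positive Pearson correlation of log2(CPM + 1) over the 12 pools, with a median r of 0.42 (range -0.28 to 0.78) and a median Spearman rho of 0.31, whereas the median over all pairs of tested genes was -0.001. These values describe the 12 pools, which share sires and a common scaling. By permutation, 6 pairs had an unadjusted p under 0.05 and 0 of 21 passed Benjamini-Hochberg adjustment over the pairs (smallest adjusted p = 0.0674). The median r was 0.65 within control pools, 0.36 within methionine pools, 0.50 over the means of the 6 rams, and 0.43 over the 10 pools (0 of 21 adjusted in each).

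HMGCS1 and DHCR7, near the start and at the end of the pathway, had the highest Pearson correlation over 12 pools. It was r = 0.78 (permutation p = 0.00321, adjusted 0.0674) and rho = 0.77 (permutation p = 0.005, adjusted 0.0525) over 12 pools, r = 0.90 within control pools, 0.83 within methionine pools and 0.71 over ram means. Other pairs came first by rho over 12 pools (FDFT1 and SREBF2, 0.79), over 10 pools (FDPS and INSIG1, 0.82), within control pools (IDI1 and SREBF2, 0.91), within methionine pools (FDFT1 and SREBF2, 0.89) and over ram means (FDFT1 and DHCR7, 0.92). Without the 2 pools farthest from the median of HMGCS1 the r of HMGCS1 and DHCR7 was 0.75, and over the 10 pools it was also 0.75 (permutation p = 0.0114, adjusted 0.0799). FDFT1 and SREBF2 had r = 0.59 and rho = 0.79 over 12 pools (permutation p = 0.0562 and 0.0033, adjusted 0.131 and 0.0525) and r = 0.77 over 10 (permutation p = 0.00989, adjusted 0.0799). With scaling by relative log expression (RLE) in place of TMM, the adjusted permutation p of rho was 0.0403 for both pairs, so that 2 of 21 pairs passed by rho and 0 by r. FDPS and INSIG1 had r = 0.40 over 12 pools but 0.82 over 10 (permutation p = 0.202 and 0.00751, adjusted 0.354 and 0.0799). Against the mean of the other members, HMGCS1 (r = 0.83), DHCR7 (0.74), SREBF2 (0.69) and FDPS (0.68) stood higher than FDFT1 (0.45), IDI1 (0.35) and INSIG1 (0.07) in 12 pools, and INSIG1 had 0.52 in 10. Its pair with SREBF2 was the lowest of the 21 in 12 pools, at r = -0.28.

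**Figure D3:**
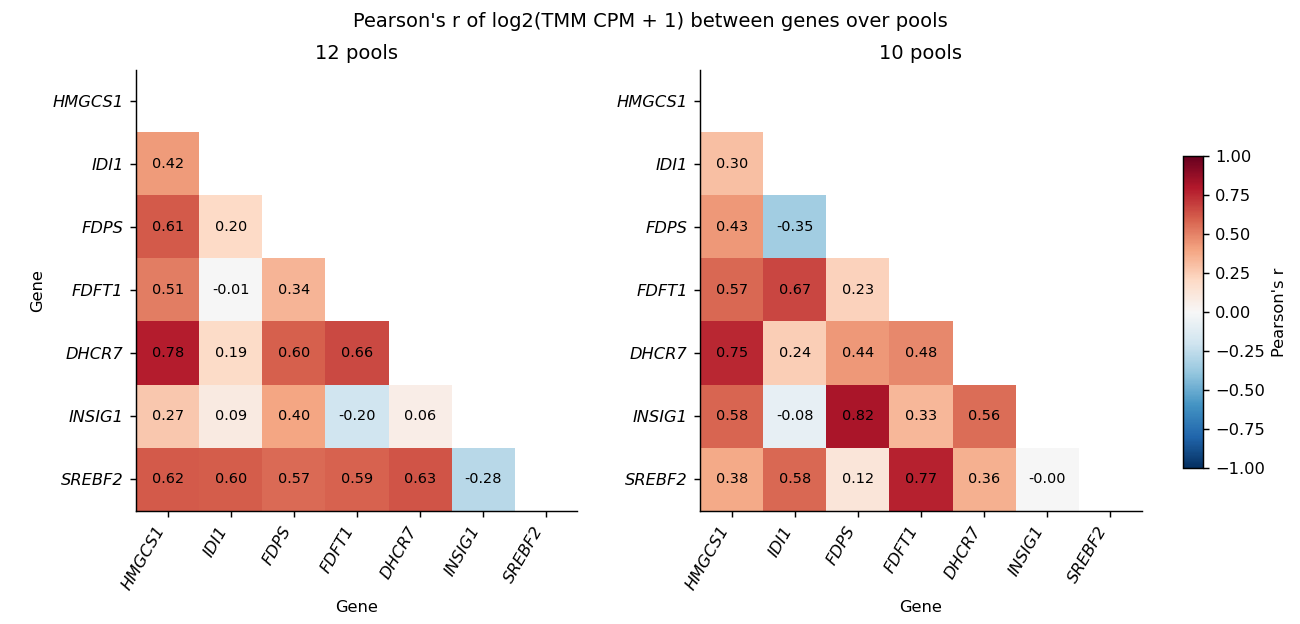
Pearson's r of log2(CPM + 1) for each pair of the 7 genes, over 12 pools on one side and over the 10 without Embryo444_2 and Embryo511_1 on the other. The median r is 0.42 and 0.43, and the pair FDPS and INSIG1 changes from 0.40 to 0.82.

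To order the pools, each gene's log2(CPM + 1) was scaled to a mean of 0 and an SD of 1 over pools, and the 7 scaled values were averaged. This mean z score was highest in Embryo410_2 (0.84), Embryo423_2 (0.71), Embryo424_4 (0.67), Embryo424_3 (0.65) and Embryo423_1 (0.52). It was below 0 in the other 7 pools and lowest in Embryo444_2 (-1.35). Pools of each diet were thus found at both ends. Computed over the 10 pools, the score fell into sets of 5 with a gap between them, from 0.57 to 0.78 and from -0.77 to -0.48, and sets of 5 are too few to test a relation within them. The correlations with the score given next are descriptions of these pools. Its correlation with the log2 of the total counts was 0.18 in 12 pools and -0.25 in 10. Among the 6 trophectoderm markers, 5 had a positive correlation with the score in 12 pools (median 0.55) and 3 in 10 (median -0.04). The keratins KRT8 (0.68 and 0.89) and KRT18 (0.73 and 0.77) were positive in both, whereas TFAP2C (0.45 and -0.44) and CDX2 (0.54 and -0.23) changed sign. The 2 epiblast markers were positive in 12 and in 10 pools (medians 0.53 and 0.25). Of the 4 hypoblast markers 2 were positive in each (medians 0.13 and 0.02). SOX17, at most 5.71 CPM, had 0.72 and 0.90, while GATA6 (0.39 and -0.58) and GATA4 (-0.13 and 0.14) changed sign.

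**Figure D4:**
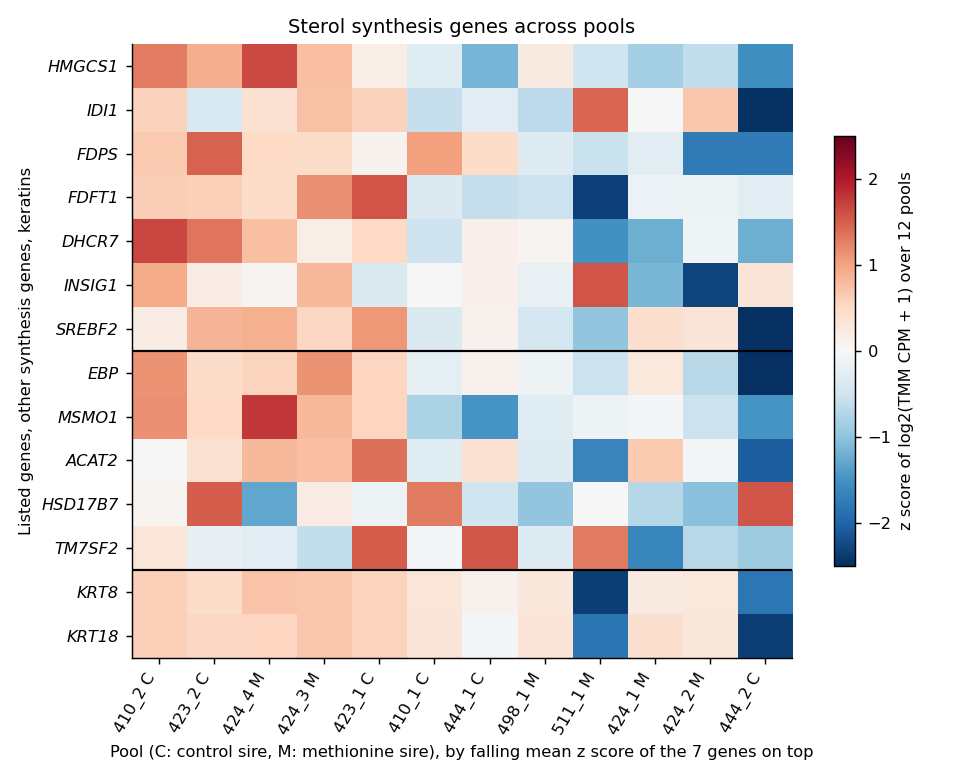
Scaled levels (z score of log2(CPM + 1) over 12 pools) of the 7 genes, of EBP, MSMO1, ACAT2, HSD17B7 and TM7SF2 from the same pathway, and of KRT8 and KRT18, with pools ordered by falling mean z score of the 7 genes. The 5 pools at the left, 3 of control and 2 of methionine sires, have scores of 0.52 to 0.84, and Embryo444_2 at the right has -1.35.

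Of all 16481 other genes tested, EBP had the pattern most like the 7 over the 12 pools (r = 0.90 with the mean z score). EBP encodes the isomerase that shifts a double bond in the sterol ring, and its level ran from 7.08 CPM in Embryo444_2 to 64.9 CPM in Embryo424_3. The next 4 genes were NAB1 (0.89), HES6 (0.88), SOX13 (0.87) and MCRIP1 (0.87), none of them a sterol enzyme. In the list of other sterol genes those most like the score after EBP included MSMO1 (0.83, rank 23 of 16481), which removes methyl groups at carbon C-4 of the sterol ring, ACAT2 (0.71, rank 205), which makes acetoacetyl-CoA, and RXRA (0.60), a nuclear receptor partner. At the other end were RNF139 (-0.80), a ubiquitin ligase of the endoplasmic reticulum, and NR1H2 (-0.49), the oxysterol receptor LXR-beta. Over the 10 pools RXRA had 0.17, RNF139 -0.52 and ACAT2 0.53. In the 10 pools RFX6 (0.96) came first, and EBP (0.85) and MSMO1 (0.82) ranked 27 and 51, ahead of the other listed genes, while NR1H2 had -0.80.

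The likeness differed between branches of the pathway in its counts. Among the 14 further synthesis genes tested, 12 had a positive r with the score (median 0.42) in 12 pools and 13 (median 0.40) in 10, where 48.8% of all other genes were positive with a median of -0.01 in both. The 11 genes of sensing and control had medians of -0.09 and -0.13, the 10 of uptake and transport -0.06 and 0.08, and the 8 of the non-sterol branch 0.02 and 0.08. For the 7 genes of efflux, storage and oxidation the median turned from -0.17 to 0.37. No test was run on these medians.

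The wider list of 59 sterol genes, of which 50 were tested, likewise held 0 genes called between diets in the 12 pools by edgeR's quasi-likelihood test (smallest FDR 0.62), with 24 genes higher, 26 lower and a median log2 fold change of -0.02. An unadjusted p under 0.05 was reached by 3 of 50 (6%, beside 7.92% of all genes), all with lower values in methionine pools. They included HSD17B7, a ketosteroid reductase of the same pathway (log2 fold change -0.54, SE 0.25), and DHDDS, a subunit of the dolichol synthase (-0.61, SE 0.29). On the higher side the smallest p values in the same test belonged to NR1H2 (0.61, SE 0.29, FDR 0.638), COQ2, which acts in ubiquinone synthesis (0.52, SE 0.27, FDR 0.662), and SOAT1, which esterifies cholesterol for storage (0.54, SE 0.30, FDR 0.670). DHDDS was highest in Embryo444_2 (89.2 CPM) and SOAT1 in Embryo511_1 (157 CPM). Without Embryo444_2 and Embryo511_1 the log2 fold change was -0.34 (SE 0.25) for DHDDS and 0.30 (SE 0.29) for SOAT1. In that fit it was -0.52 (SE 0.25) for HSD17B7, 0.76 (SE 0.28) for NR1H2 and 0.63 (SE 0.25) for COQ2.

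The groups overlapped for HSD17B7 too, where control pools had 28.4, 40.0 and 50.3 TMM-scaled CPM (lowest, median, highest) and methionine pools 22.6, 25.7 and 34.6 CPM. In the 10 pools 7 of the 50 genes had an unadjusted p under 0.05 (14%, beside 11.9% of all genes), 4 higher and 3 lower, and 0 were called. TM7SF2, a sterol reductase, had the smallest p there (log2 fold change -1.53, SE 0.39, unadjusted p = 0.00139, FDR 0.240 in edgeR's quasi-likelihood test), and its 5 methionine pools (7.17 to 20.2 CPM) all lay below its 5 control pools (21.2 to 73.8 CPM), as pools of the diets did not overlap for 1.76% of all genes. The 2 highest control pools were Embryo444_1 (73.8 CPM) and Embryo423_1 (71.4 CPM). With Embryo444_2 (12.7 CPM) and Embryo511_1 (61.5 CPM) included, its log2 fold change was -0.79 (SE 0.50, FDR 0.715). COQ2 was separated in the opposite direction over the 10 pools, with control pools at 16.3 to 24.8 CPM and methionine pools at 26.8 to 41.8 CPM. In Embryo511_1 COQ2 had 17.8 CPM. For both genes the 5 methionine pools were 4 from Ram424 and 1 from Ram498, beside pools of 3 control rams. The separation of pools therefore rests on few sires and mostly on 1 methionine sire.

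**Figure D5:**
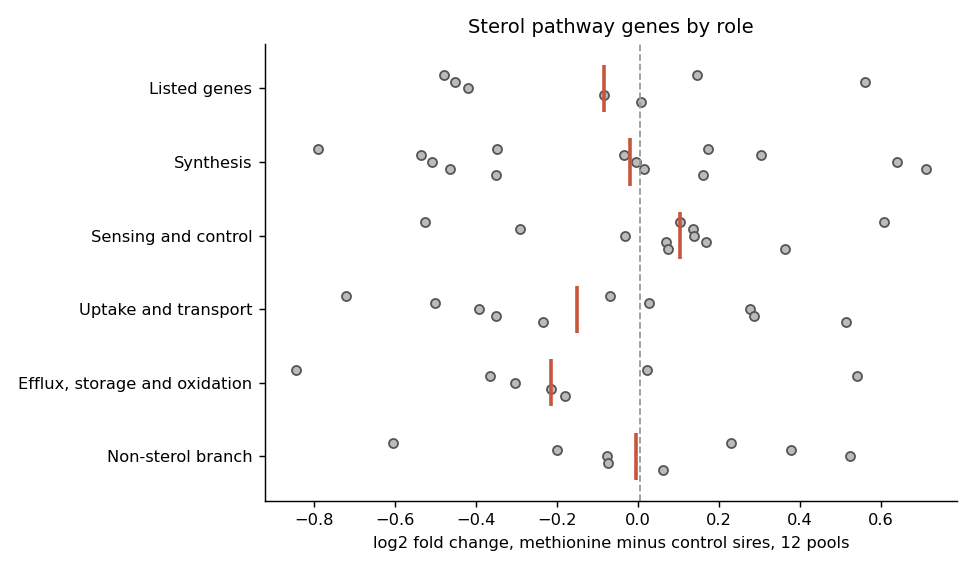
Log2 fold change between embryos of methionine and control sires for the 7 genes and the 50 other sterol genes, by branch of the pathway, from edgeR's quasi-likelihood fit on 12 pools. Points stand for genes and short lines for the median of a branch, the dashed line is the median of all genes tested (0.005), and values lie on both sides of 0 in every branch.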

How the data were processed

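Gene counts of 12 embryo pools were used as the authors deposited them. Per the study's methods and the submitters' processing notes, reads from whole-transcriptome amplified RNA were demultiplexed (bcl2fastq), checked (FastQC), trimmed (Trimmomatic), aligned to the sheep assembly Oar_rambouillet_v1.0 and counted per gene with STAR. The strand setting was not given in the sources used here, so reads of overlapping genes on opposite strands may not be separated. Since the RNA was amplified and no molecular identifiers were counted, reads do not each stand for a separate molecule.

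Pools were grouped by the diet and ram in their labels. Diet was tested over all genes that reached 15 counts in over 3 pools, with edgeR 4.0.16 (quasi-likelihood test, TMM scaling, Benjamini-Hochberg FDR, R 4.3.3). DESeq2 1.42.0, limma 3.58.1 with ram as a random effect, pools summed per ram, other filters and scalings, and leaving out each pool or ram were run as alternatives. Single values were tested by exact permutation of the pools or rams on log2(CPM + 1), and correlations by permutation (scipy 1.17.1). Nothing in the labels says which pools share a dam. Because the paper reports fewer ewes than pools, some do, and p-values measure only the spread between these pools. Levels of single genes are compared only within a gene, since no transcript lengths of this assembly were used, and sums over markers add genes of unknown length.

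The 7 genes are all named. Other sterol genes are named where they passed the FDR, or otherwise as the 3 with the smallest p in each direction, and the 5 genes with the highest correlation to the mean z score are named, except for some genes that are not reported here. The order of the pools of Ram424, KRT8 and the other lineage markers beside the score, TM7SF2, RNF139, RFX6 and the values for 10 pools were picked after their values were seen. The genes and lists were chosen with earlier results of these data known. Sperm methylation counts were not used here, and the planned look at promoters of the 7 genes was not run because no annotation of that assembly was used here.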

Additional observations from a re-analysis of the deposited data

How the results depend on the processing

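Under 25 alternatives to the diet test (other tests, scalings and filters, pools summed per ram, ram as a random effect, each pool and each ram left out, and 2 changes of samples chosen after seeing the data) 0 of the 7 genes and 0 of the 50 other sterol genes were called, and the median log2 fold change of the 7 ranged from -0.54 without Ram424 to 0.22 without Ram423. Over all genes the likelihood-ratio test called 5 and DESeq2 16. IDI1, FDPS and DHCR7 kept their direction in all 25. Outside these fits, the difference of IDI1 between the ram means of log2(CPM + 1) was 0.63 over 12 pools and -0.04 over 10. With pools summed per ram, HMGCS1 was at -0.011, INSIG1 at 0.17 and SREBF2 at -0.33, and with ram as a random effect SREBF2 was at -0.042. Without the 2 pools that stood apart SREBF2 was at -0.073 (exact permutation p = 0.952), and with Embryo424_1 and Embryo424_2 summed INSIG1 was at 0.058 and SREBF2 at -0.020. Leaving out pools or rams moved HMGCS1 between -0.23 and 0.43, INSIG1 between -0.33 and 0.35, FDFT1 between -2.02 (without Ram424) and 0.22 (without Ram423), and SREBF2 between -0.87 (without Ram424) and 0.56 (without Ram423). The cause was not tested. The count of gene pairs with an adjusted correlation was 0 to 2 over rams left out: 2 without Ram444 (HMGCS1 with DHCR7, FDFT1 with SREBF2) and 2 without Ram511. By rho, 0 pairs passed in the 12 pools with TMM, 2 with RLE scaling and 1 without Ram444. No paired analysis was possible because the pools of the diets share no replicate numbers. Having 6 pools a diet from 3 rams limits the precision, and low counts limit FDFT1 in Embryo511_1.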
